A study of Mus musculus with 51 samples.

Results

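The sites described here are regions that gained H3K27ac in early astrocytes, kept it in late astrocytes, and were already marked with H3K4me1 in the progenitors. They were chosen from the H3K27ac peaks of early astrocytes (eA) on chromosomes 1 to 19 as those that overlapped, by at least 1 bp, an H3K27ac peak of late astrocytes (lA), no H3K27ac peak of astrogliogenic neural progenitor cells (aNPC), and an H3K4me1 peak of aNPC. Of 81348 eA peaks, 58507 overlapped an lA peak, 21211 of these overlapped no aNPC H3K27ac peak, and 14195 of those overlapped an aNPC H3K4me1 peak. These 14195 sustained primed sites were 17.4% of the eA peaks and 66.9% of the 21211 sites with the same H3K27ac pattern, while 79.5% of all eA peaks overlapped an aNPC H3K4me1 peak. Since the rule used H3K27ac in all 3 stages and H3K4me1 in aNPC, these shares are descriptions.

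All groups are in vitro cultures of one background, derived from mouse embryonic stem cells of C57/BL-6 origin, with no transgene or knockdown named in the labels. The aNPC were grown in DMEM-F12 with N2, EGF and FGF-2. The eA and lA are the same cells after 1 and 5 days in DMEM with 1% serum and leukemia inhibitory factor (LIF). Each of the 6 lists, of H3K27ac and H3K4me1 in the 3 stages, came from the merged reads of 2 biological replicates and held 77553 to 90545 H3K27ac or 150527 to 203377 H3K4me1 peaks on these chromosomes. No spread between cultures can therefore be given, the depth is unknown, and the intervals below cover counting error over sites only. In bulk chromatin, fewer cells with a mark and less of it per cell cannot be told apart. The series holds 51 samples, of which 12 libraries stand behind these lists, and the rest were not analysed here.

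Enhancers are stretches of DNA that bind transcription factors and raise the transcription of genes that can lie far away. H3K4me1, monomethylation of lysine 4 of histone H3, is found at enhancers both before and during use, whereas H3K27ac, acetylation of lysine 27, marks those in use. An enhancer that carries H3K4me1 without H3K27ac is called primed. In the astroglial lineage, LIF acts through gp130 and JAK-STAT signaling, BMP through Smad proteins, and the NFI, AP-1 and Runx families are among the transcription factors studied for the switch to astrocytes. Short sequence motifs recognized by such factors were searched in the DNA of the sites.

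The DNA under some of the sites is shown first, as the 200 bases around the eA H3K27ac summit on the forward strand of mm9, with matches to any of the 12 motifs searched in capitals. The first 3 windows are those of the named sites that hold an NF1 match and could be printed, none of which holds an AP-1 match in these 200 bases, and the other 5 are the sites with the highest −log10 q, a measure of how far a peak stands above its local background. Matches are to letters only and do not show that a factor binds there.
Bcl3, chr7:20401202-20401401: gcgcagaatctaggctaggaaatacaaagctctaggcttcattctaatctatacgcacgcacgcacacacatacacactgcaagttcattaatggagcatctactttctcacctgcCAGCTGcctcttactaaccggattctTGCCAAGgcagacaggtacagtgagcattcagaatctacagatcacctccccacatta
Nfia, chr4:97606368-97606567: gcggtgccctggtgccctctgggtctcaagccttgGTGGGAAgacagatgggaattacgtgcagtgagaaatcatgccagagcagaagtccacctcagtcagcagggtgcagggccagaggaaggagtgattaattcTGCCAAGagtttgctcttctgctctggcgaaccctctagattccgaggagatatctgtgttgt
Col1a1, chr11:94775384-94775583: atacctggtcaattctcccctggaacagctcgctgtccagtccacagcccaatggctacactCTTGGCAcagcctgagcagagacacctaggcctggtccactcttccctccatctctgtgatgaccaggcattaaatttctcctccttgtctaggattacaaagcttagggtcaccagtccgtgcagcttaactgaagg
Traf1, chr2:34848418-34848617: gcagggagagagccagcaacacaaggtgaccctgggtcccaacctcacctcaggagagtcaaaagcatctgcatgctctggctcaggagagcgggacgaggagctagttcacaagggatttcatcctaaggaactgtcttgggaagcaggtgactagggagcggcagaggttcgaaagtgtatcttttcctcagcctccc
Bmp6, chr13:38492859-38493058: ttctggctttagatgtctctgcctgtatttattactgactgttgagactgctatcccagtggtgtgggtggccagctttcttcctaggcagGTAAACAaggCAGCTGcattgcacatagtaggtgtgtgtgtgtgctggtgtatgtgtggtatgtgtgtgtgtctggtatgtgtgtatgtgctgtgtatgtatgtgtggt
Samd12, chr15:53756456-53756655: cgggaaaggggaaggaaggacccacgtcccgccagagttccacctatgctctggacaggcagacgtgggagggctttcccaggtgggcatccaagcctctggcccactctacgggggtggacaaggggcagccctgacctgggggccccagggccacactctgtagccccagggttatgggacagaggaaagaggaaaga
Hist1h2al, chr13:51325324-51325523: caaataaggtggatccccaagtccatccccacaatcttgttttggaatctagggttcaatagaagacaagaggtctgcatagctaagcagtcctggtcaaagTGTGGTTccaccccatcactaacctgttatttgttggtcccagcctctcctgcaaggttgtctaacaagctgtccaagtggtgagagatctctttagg
Mrpl33, chr5:31932914-31933113: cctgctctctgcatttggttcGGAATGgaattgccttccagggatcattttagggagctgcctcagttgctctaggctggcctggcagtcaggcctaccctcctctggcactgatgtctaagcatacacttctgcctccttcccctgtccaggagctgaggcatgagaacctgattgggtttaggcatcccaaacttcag

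In these windows, the site in an intron of Bcl3, which encodes an IκB-like cofactor of NF-κB, held an NF1 half-site and an E-box. The site in an intron of Nfia, which encodes a transcription factor of the NFI family, held an NF1 half-site and an RBPJ match. The intergenic site nearest to Col1a1, a fibrillar collagen gene, held an NF1 half-site alone. The sites nearest to Traf1 and Samd12, with the highest and the third highest −log10 q of all sustained primed sites, held no match to any of the 12 motifs within 100 bases of the summit. The site in an intron of Bmp6, a secreted BMP ligand, held a Forkhead match and an E-box, the site nearest to the histone gene Hist1h2al a RUNX match, and the site in an intron of both Mrpl33 and Rbks a TEAD match.

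H3K4me1 remained at nearly all of the sustained primed sites in the later stages, which the rule did not ask for. The rule did ask for H3K4me1 in aNPC. A higher share than at unprimed sites, or than over all eA peaks, is therefore not independent of the rule. An eA H3K4me1 peak overlapped 13768 of the 14195 sites (97.0%, 95% Wilson interval 96.7 to 97.3), and an lA H3K4me1 peak overlapped 13449 (94.7%, 94.4 to 95.1), against 86.8% and 83.7% of all eA H3K27ac peaks. In the 7016 sustained unprimed sites, which have the same H3K27ac pattern but no aNPC H3K4me1 peak, the shares were 77.5% in eA and 79.7% in lA. In the 8675 transient primed sites, which were primed in aNPC and gained H3K27ac in eA but had no H3K27ac peak in lA, they were 92.1% and 84.5%. The share was thus highest at the sustained primed sites in both stages.

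The share with H3K4me1 in eA was higher at sustained primed than at sustained unprimed sites by 19.5 percentage points (95% Newcombe interval 18.5 to 20.5, adjusted p = 8.00e-300 in Fisher's exact test, two-sided, which is the floor set for p after adjustment). The difference from the transient primed sites was 4.95 points (4.32 to 5.59, adjusted p = 5.87e-61, Fisher's exact test). In lA, the differences were 15.0 points from the sustained unprimed sites (14.0 to 16.0, adjusted p = 1.02e-234) and 10.3 points from the transient primed sites (9.45 to 11.1, adjusted p = 4.08e-145), again in Fisher's exact test with Benjamini-Hochberg adjustment over 8 tests. All 4 differences had the same sign on 19 of 19 chromosomes. The sustained unprimed sites were chosen for lacking H3K4me1 in aNPC, so the differences from them follow in part from that choice. The tests compare sites of merged lists, which are neighbours on chromosomes and not replicates of a stage, so their p-values do not carry the error between cultures.

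**Figure D1:**
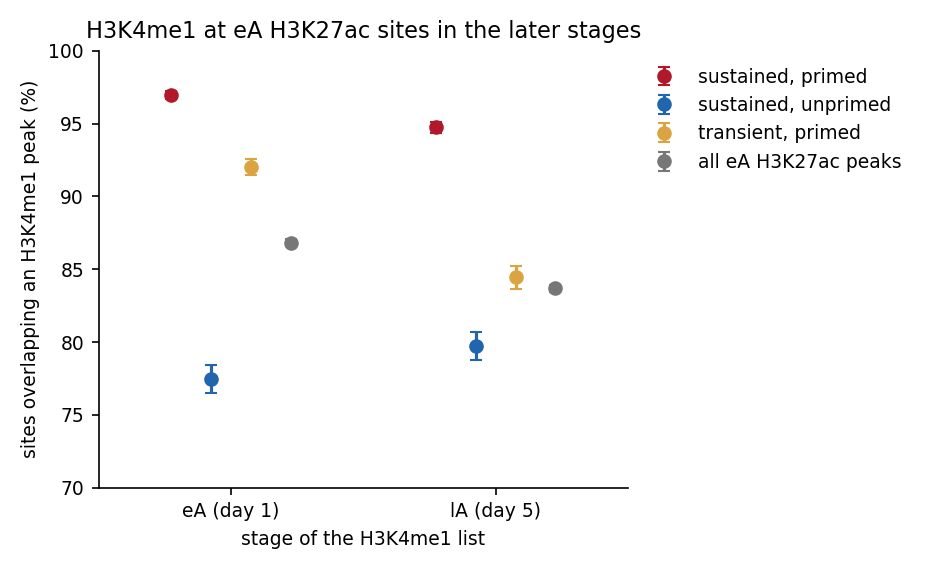
Share of sites (y axis, %, from 70) that overlap an H3K4me1 peak of eA (day 1) or lA (day 5), for sustained primed sites, the 2 comparison sets and all eA H3K27ac peaks. Points are shares and bars are 95% Wilson intervals, and the sustained primed sites lie highest in both stages, at 97.0% and 94.7%.

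The sets differ in the width of their eA H3K27ac peaks, and a wider peak meets another peak more easily. The median width was 394 bp at sustained primed, 256 bp at sustained unprimed and 212 bp at transient primed sites. Among peaks of 300 to 600 bp only, of which 5505 were sustained primed sites, the differences in H3K4me1 were smaller and still past the threshold, with 14.4 and 2.90 points in eA and 10.7 and 7.08 points in lA from the unprimed and the transient set.

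Where H3K4me1 was missing later, it was missing in a minority of the sites. A peak was present in both eA and lA at 93.3% of the sustained primed sites, in eA but not lA at 3.66%, in lA but not eA at 1.42%, and in neither at 1.59% (226 sites). At the transient primed sites, 10.9% had H3K4me1 in eA but not in lA. The share varied little with the strength of the H3K27ac peak, and from the lowest to the highest of 4 bins cut at the quartiles of −log10 q the share with eA H3K4me1 was 97.0%, 97.1%, 97.2% and 96.7%. The 501 sites centred in promoters had eA H3K4me1 in 91.6% and lA H3K4me1 in 89.0%, below the 97.9% and 96.1% of the 6155 intergenic sites.

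H3K4me1 peaks also covered more of the DNA around the sustained primed sites in the later lists, which are longer throughout, covering 89.7 Mb for the progenitors and 109 and 116 Mb at days 1 and 5. Peaks of H3K4me1 covered a median of 43.7% of the 2 kb around the eA summit in aNPC (quartiles 29.6% and 56.2%). After 1 day this was 58.2% (45.5% and 69.8%) and after 5 days 55.0% (41.9% and 67.4%), so that the sites overlap widely between stages. The transient primed sites began at nearly the same median, 42.7% in aNPC, and reached 49.1% in eA and 42.9% in lA. Over all eA H3K27ac peaks the medians were 45.2%, 51.6% and 47.5%. These are values of single lists and carry no test.

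**Figure D2:**
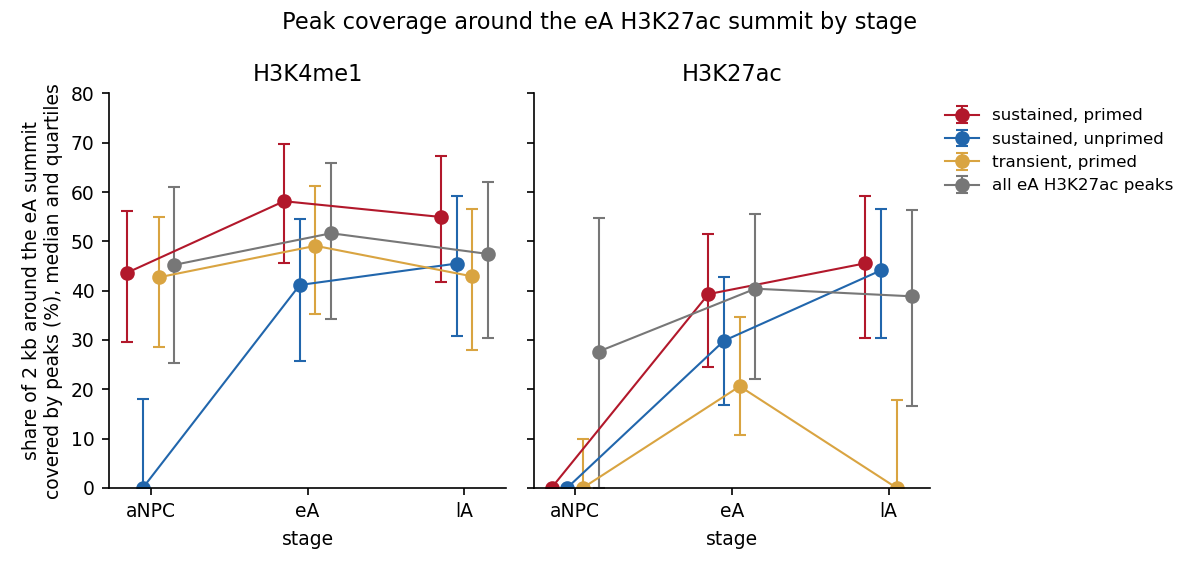
Share of the 2 kb around the eA H3K27ac summit that is covered by H3K4me1 (left) and H3K27ac (right) peaks (y axis, %) in aNPC, eA and lA. Points are medians over sites and bars run from the first to the third quartile, with the sustained primed sites at 43.7%, 58.2% and 55.0% for H3K4me1.

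The H3K4me1 peaks that overlapped the sites had a median width of 715 bp for the progenitors, 981 bp at day 1 and 909 bp at day 5, against 860, 894 and 825 bp for those over all eA H3K27ac peaks. Their median percentile by −log10 q was 62.3 in the aNPC H3K4me1 list, 79.0 in the eA list and 80.8 in the lA list, against 76.2, 77.9 and 78.7 over all eA H3K27ac peaks. The lists differ in length and the rule chose on the aNPC peak, so these ranks describe each list and not a change between stages. At the transient primed sites the percentiles were 62.7, 72.6 and 71.7, so that in aNPC the H3K4me1 peaks of both primed sets had nearly the same rank. The eA summit of H3K27ac lay inside the H3K4me1 peak at 80.2% of the sustained primed sites for the aNPC list, 91.6% for eA and 86.8% for lA. The aNPC H3K4me1 summit was a median of 195 bp from the later H3K27ac summit.

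H3K27ac at the sustained primed sites was of middle rank in eA. The median −log10 q was 9.25, with quartiles of 5.68 and 16.1 and a range of 1.42 to 167, and the median percentile was 47.9 in the eA list and 57.4 in the lA list for the lA peak at the same place. The fold of the peak over its local background had a median of 4.22 in the eA list. The lA summit lay within 233 bp of the eA summit at 3 in 4 sites, with a median distance of 110 bp, and the eA summit fell inside the lA peak at 86.1%. Sustained unprimed sites ranked lower in eA, with a median percentile of 31.2, and alike in lA, with 57.1. Transient primed sites ranked lowest of the 3 sets in eA, with a median percentile of 24.4 and a median −log10 q of 5.12. Of their peaks 45.0% were under 200 bp wide, against 16.5% at the sustained primed sites. The part of peak strength in their missing lA peaks was not tested.

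Distance to chromatin that carried H3K27ac already in aNPC varied among the sites. The nearest aNPC H3K27ac peak was at most 1 kb away at 24.0% of the sustained primed sites, over 1 to 10 kb away at 33.0%, and farther at 43.1%. Within 1 kb but apart from it lay 13.6% of the sustained unprimed sites, 30.1% of the transient primed sites and 9.76% of all eA peaks, whose median gap to an aNPC H3K27ac peak was 0 bp. In 1929 sites (13.6%), the aNPC H3K4me1 peak itself overlapped an aNPC H3K27ac peak elsewhere along its length. The 12266 sites whose primed peak was free of aNPC H3K27ac had H3K4me1 in 97.2% in eA and 95.2% in lA. At the limits of the rule, 89 sites overlapped the aNPC H3K4me1 peak by 10 bp or less and 68 lay 10 bp or less from an aNPC H3K27ac peak. Just outside it, 60 otherwise alike peaks overlapped an aNPC H3K27ac peak by 10 bp or less, and 87 sustained unprimed sites lay 10 bp or less from an aNPC H3K4me1 peak.

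Seen from the progenitors, gain of lasting H3K27ac was the fate of a minority of primed regions. Of the 91817 aNPC H3K4me1 peaks without aNPC H3K27ac, 13.3% overlapped H3K27ac peaks in both eA and lA, 7.29% in eA only, 6.59% in lA only, and 72.8% in neither. The primed peaks that gained both had a median width of 580 bp in aNPC, against 315 bp for those that gained neither. Their median −log10 q in aNPC was 12.1 against 6.73. A wider peak meets another peak more easily, and the part of this in the difference was not tested. Of the 14195 sites, 3762 shared their aNPC H3K4me1 peak with another of them, the most on one peak being 5, so that the sites are not all separate regions.

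The sustained primed sites lay mostly away from start sites. Their centre fell in an intron at 49.9%, in intergenic DNA at 43.4%, in a promoter at 3.53% (from 1 kb before a coding start site to 100 bp past it) and in an exon at 3.23%. Of all eA H3K27ac peaks, 48.4%, 34.9%, 11.3% and 5.38% did so. The median distance to the nearest coding start site was 30.7 kb, against 20.2 kb over all eA peaks, 33.8 kb at sustained unprimed and 23.3 kb at transient primed sites. Over 50 kb away lay 36.9% of the sites, against 30.3% of all eA peaks, 39.7% of the sustained unprimed and 32.2% of the transient primed sites.

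The promoter share was between those of the comparison sets. It was 1.72 points above the 1.81% of the sustained unprimed sites (95% Newcombe interval 1.27 to 2.15, adjusted p = 7.04e-13, Fisher's exact test) and lower than the 7.15% of the transient primed sites, with a difference of -3.62 points (-4.25 to -3.01, adjusted p = 1.75e-33, same test). The intergenic share was 8.18 points above that of the transient primed sites (6.88 to 9.47, adjusted p = 1.92e-34, Fisher's exact test). Against the sustained unprimed sites its difference was -2.66 points (-4.09 to -1.24, adjusted p = 2.54e-04 in Fisher's exact test), which was lost among peaks of 300 to 600 bp (-1.30 points, adjusted p = 0.307) and among sites without an aNPC H3K27ac peak within 1 kb (-1.28 points, adjusted p = 0.111).

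**Figure D3:**
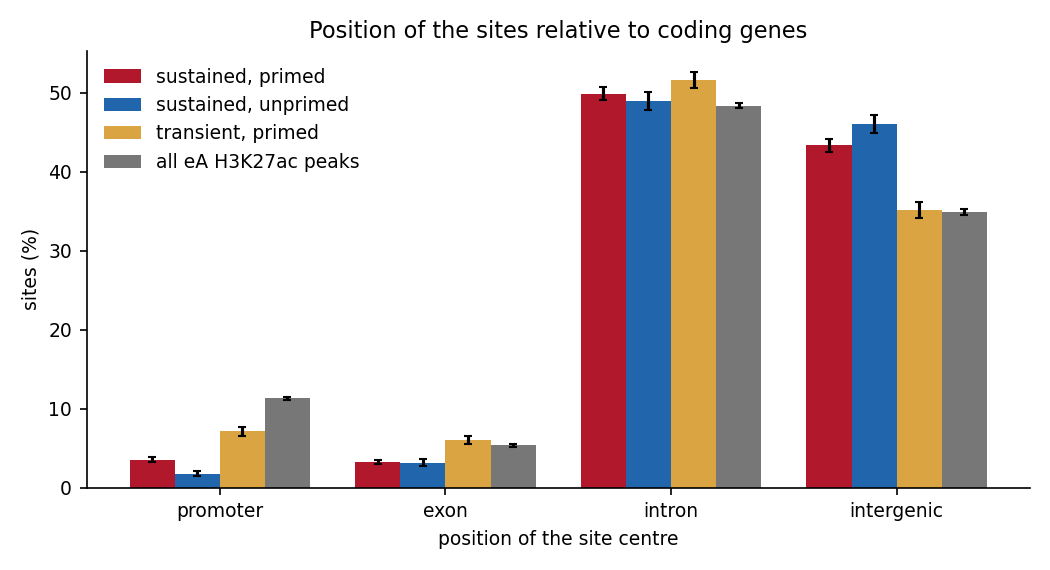
Share of sites (y axis, %) whose centre lies in a promoter, exon, intron or intergenic DNA, for sustained primed sites, the 2 comparison sets and all eA H3K27ac peaks. Bars are shares with 95% Wilson intervals, and 3.53% of the sustained primed sites are in promoters against 11.3% of all eA peaks.

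When sites up to 12.5 kb apart were joined, 6845 sites stood alone and 7350 had at least one neighbour. Of the 9985 resulting groups, 61 held 5 or more sites (331 sites). The same joining was not done for all eA peaks or the comparison sets. These counts therefore do not show that the sites cluster more than other peaks. The group with most sites held 10 within 44.0 kb beside Adamts8, which encodes a secreted metalloprotease (chr9:30750044-30793995). The share of eA peaks that were sustained primed sites went from 15.8% on chromosome 11 to 20.1% on chromosome 1.

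Motif matches at the summit were close to the background. An NF1 half-site (TGCCAAG on either strand) was found in the 200 bases around the summit at 5.38% of the sustained primed sites (95% Wilson interval 5.02 to 5.76), against 4.61% of all eA peaks, 4.25% of the sustained unprimed and 5.75% of the transient primed sites. An AP-1 match (TGACTCA) was found at 4.28% (3.96 to 4.63), against 3.59% of all eA peaks, 5.30% of the sustained unprimed and 4.16% of the transient primed sites. Compared with the sustained unprimed sites, the share at the sustained primed sites was higher on 18 of 19 chromosomes for the half-site and on 3 of 19 for AP-1. Compared with the transient primed sites it was higher on 6 of 19 and on 11 of 19. An E-box (CAGCTG) was found at 12.8% of the sustained primed, 10.1% of the sustained unprimed and 14.1% of the transient primed windows, with 12.7% over all eA peaks.

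For the other motifs, the shares in sustained primed windows and in all eA windows were 12.2% and 10.8% for TEAD (GGAATG), 4.15% and 3.74% for RUNX (TGTGGTT), 5.27% and 4.90% for RBPJ (TTCCCAC), 4.01% and 3.57% for Homeobox (TAATTA), and 2.88% and 2.59% for SOX (CCATTGT). They were 2.92% and 2.66% for Forkhead (TGTTTAC), 2.89% and 2.68% for POU (TGCAAAT), and 0.754% and 0.649% for STAT (TTCCNGGAA). The full NF1 palindrome (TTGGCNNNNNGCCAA), whose right arm shares its letters with the half-site, was found at 0.0564% of the sustained primed and 0.0246% of all eA windows, and 25 windows (0.176%, against 0.144% of all eA windows) held both an NF1 half-site and AP-1. The windows of the sustained primed sites had a median GC content of 48.0%, against 46.0%, 48.5% and 49.5% in the unprimed, the transient and all eA windows. Within windows of 40 to 50% GC, the half-site stood at 5.35%, 4.43% and 6.18% in the sustained primed, sustained unprimed and transient primed sets and AP-1 at 4.42%, 5.65% and 4.41%, against 5.07% and 4.20% of all eA windows of that GC content. There the order of sustained primed and all eA windows turned for RUNX (4.30% and 4.63%), SOX (3.09% and 3.18%), Forkhead (3.31% and 3.33%) and POU (3.27% and 3.38%).

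Matches to some of the motifs, AP-1 among them, were more frequent to the sides of the summit than under it, both at the sustained primed sites and over all eA peaks. This profile, in steps of 100 bp over 2 kb, was added after the data had been seen. At the sustained primed sites, AP-1 matches numbered 22.8 per 1000 sites and 100 bp within 100 bp of the summit, 41.4 at 200 to 400 bp from it, and 21.0 at 600 to 1000 bp. Over all eA H3K27ac peaks the values were 19.1, 30.2 and 18.7. The sustained unprimed sites showed the same shape, with 28.6, 49.3 and 23.8. At the transient primed sites the values were 21.8, 24.7 and 17.8. Their peaks are narrower, and the part of peak width in this difference was not tested. The NF1 half-site at the sustained primed sites went from 28.0 at the summit to 38.8 and then 19.6, against 24.3, 34.0 and 19.8 over all eA peaks. TEAD went from 67.2 to 89.4 and 62.3, against 58.8, 69.0 and 58.8. Homeobox matches were also fewer at the summit but did not fall again farther out, with 21.4, 31.1 and 32.4, against 19.3, 28.3 and 31.7 over all eA peaks. There was no dip for the E-box, with 71.6, 66.2 and 51.5, for RBPJ, with 27.6, 23.4 and 21.3, or for Forkhead, with 15.4, 15.6 and 14.6.

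The flanking rise was there in all 3 sets among peaks of one width range. In peaks of 300 to 600 bp, AP-1 stood at 21.9 within 100 bp and 41.5 at 200 to 400 bp at the sustained primed sites, at 25.0 and 52.5 at the sustained unprimed sites, and at 17.5 and 25.6 at the transient primed sites. No test was run on these profiles. GC content moved with the distance too, from 47.9% in the 100 bp to either side of the summit to 46.2% at -400 to -300 bp and 45.0% at -1000 bp at the sustained primed sites, and its part in the profiles was not tested.

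**Figure D4:**
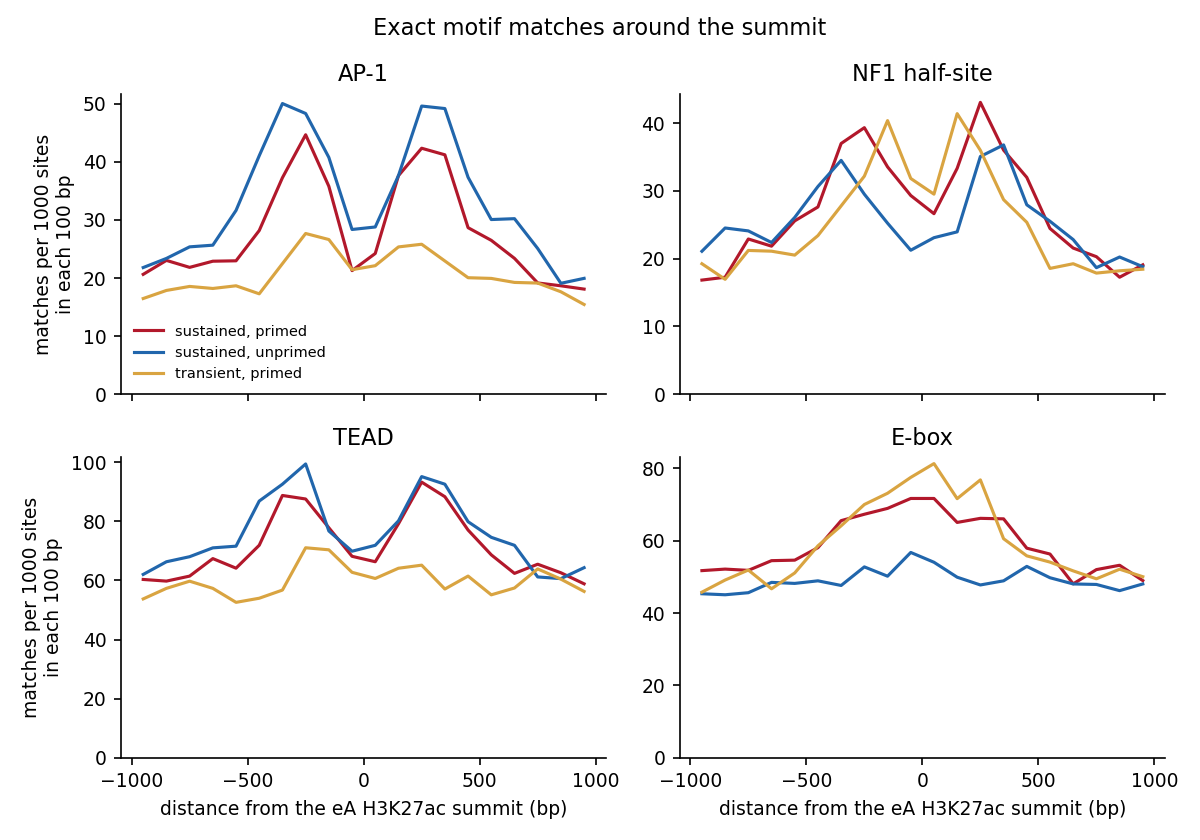
Exact matches to AP-1, the NF1 half-site, TEAD and the E-box (y axis, matches per 1000 sites in each 100 bp) by distance from the eA H3K27ac summit (x axis, bp), for sustained primed, sustained unprimed and transient primed sites. AP-1 at the sustained primed sites dips to 22.8 at the summit between flanks of 41.4.

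The 4 named sites with the highest −log10 q among those with an AP-1 match at 200 to 400 bp from the summit, inside the peak or beside it, are shown as examples of the flanks. Of the 46 named genes looked at, 7 (15.2%) had one, as had 15.0% of the sustained primed sites, 17.7% of the sustained unprimed sites, 9.27% of the transient primed sites and 11.1% of all eA peaks. The 100 bases around the match are given on the forward strand of mm9, where AP-1 reads TGAGTCA, with matches to the 12 motifs in capitals.
1700061J05Rik, chr15:78200511-78200610: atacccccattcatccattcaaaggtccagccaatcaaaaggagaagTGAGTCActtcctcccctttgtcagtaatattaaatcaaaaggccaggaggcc
Fzd10, chr5:129044607-129044706: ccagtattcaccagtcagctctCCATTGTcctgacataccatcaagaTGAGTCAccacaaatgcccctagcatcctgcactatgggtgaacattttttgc
Elavl3, chr9:21862778-21862877: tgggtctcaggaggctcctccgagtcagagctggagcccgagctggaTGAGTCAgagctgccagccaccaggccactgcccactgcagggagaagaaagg
Kdr, chr5:76373914-76374013: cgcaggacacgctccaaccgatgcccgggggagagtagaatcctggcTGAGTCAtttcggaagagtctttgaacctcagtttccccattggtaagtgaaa

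The AP-1 match lay 368 bp from the summit in the first, 348 bp in the second, 225 bp in the third and 316 bp in the fourth. In the first the match lies inside the H3K27ac peak, and at Elavl3 it crosses the edge of the peak, with 6 of its 7 bases inside. In the second and the fourth it lies outside the peak, and the second window also held a SOX match outside the peak. The second site is intergenic, 62.6 kb upstream of the nearest start site, that of the Wnt receptor gene Fzd10, and so was given to no gene. The site nearest to the start site of Elavl3, a neuronal RNA-binding protein gene, lies inside the gene Zfp653, and the site at Kdr, which encodes a VEGF receptor, lies in its promoter.

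Each site was assigned to the gene whose coding start site lay nearest, where the site lay inside a gene or under 50 kb away, and 11084 of the sites fell to 5317 genes, 25.0% of 21281 coding genes and 36.4% of the 14626 genes that had any eA H3K27ac peak. A single site was given to 2679 genes, 5 or more to 404, and 10 or more to 44. Nckap5, a gene of 917 kb, had 26 of the sites among its 91 eA peaks. Camta1, a calmodulin-binding transcription activator, had 16 of 46, Ext1, an enzyme of heparan sulfate synthesis, 15 of 43, Glis3, a zinc finger factor, 15 of 65, and Zbtb20, a transcriptional repressor with a role in astrocyte development, 15 of 75. These genes are 282 to 917 kb long, and the number of sites per gene was not adjusted for length.

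The 10 sites with the highest −log10 q in the eA list, 98.5 to 167, were led by one in an intron of Hc, 31.2 kb upstream of the start site of Traf1, a TNF receptor adaptor (chr2:34848197-34848766). Its −log10 q was 167, and its aNPC H3K4me1 peak stood at percentile 99.9 of that list, the eA one at 99.3 and the lA one at 88.7. The next was in an intron of Bmp6, 55.6 kb from the nearest start site (chr13:38492747-38493529), at 149, with H3K4me1 at percentiles 44.4, 73.0 and 73.9. The third, 23.2 kb upstream of Samd12 (chr15:53756306-53758277), had 145 and H3K4me1 percentiles of 88.9, 99.8 and 99.9. One of the 10, at Tm4sf1, a tetraspanin-like membrane protein gene, lay in a promoter, 41 bp from the start site. The others were nearest to Hist1h2al, Mrpl33, Osbpl5, 1700061J05Rik, Fzd10 and Cxcr7, the last 2 at 62.6 and 84.2 kb and so given to no gene.

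The named gene lists were read against the shares of all coding genes, with no test. Of the genes with an eA peak, between 30.0% (oligodendrocyte lineage, 3 of 10) and 78.3% (BMP and TGF-beta, 18 of 23) had a sustained primed site, against 36.4% of all such genes. Counts of genes in the paragraphs below run over all listed genes, and the matching share of all coding genes is 25.0%. Genes differ in their number of eA peaks, and counted per eA peak the lists lay closer together. Of the eA peaks of a list's genes, between 14.9% (Notch and progenitor) and 22.1% (BMP and TGF-beta) were sustained primed sites, against 16.6% of all eA peaks given a gene. The lists for other cell types were inside this range, with 19.6% for neuronal genes, 17.4% for the oligodendrocyte lineage and 19.4% for microglia and endothelium.

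**Figure D5:**
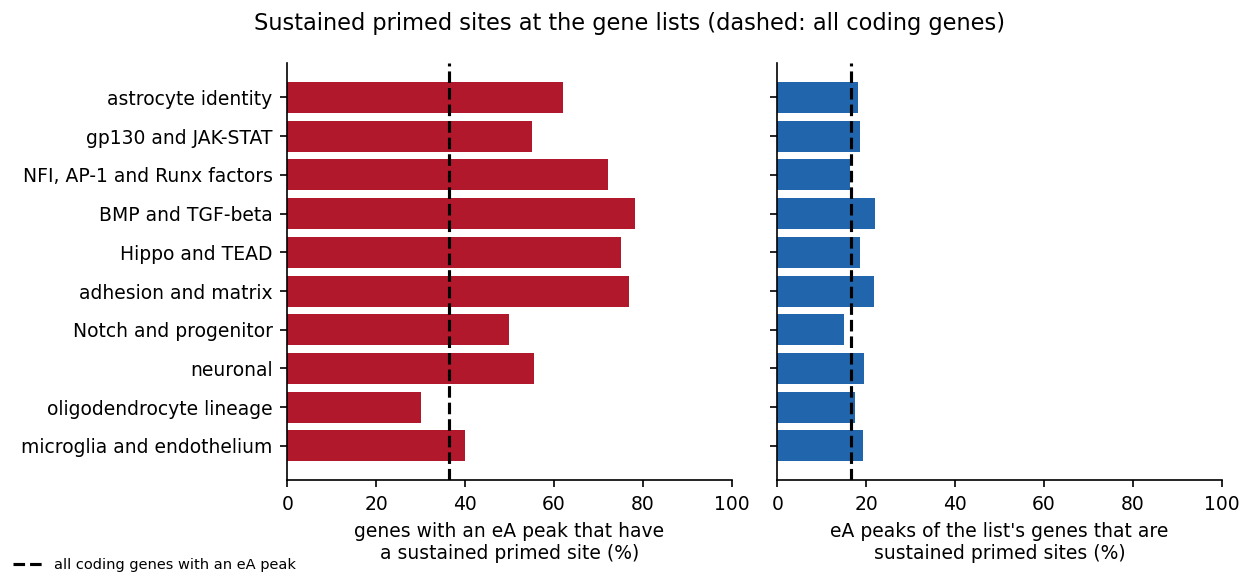
For each gene list, the share of its genes with an eA H3K27ac peak that have a sustained primed site (left, %) and the share of its eA peaks that are sustained primed sites (right, %). Bars are lists and dashed lines are all coding genes, at 36.4% and 16.6%, and the lists range from 30.0% to 78.3% on the left and from 14.9% to 22.1% on the right.

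Among the astrocyte genes, 18 of 30 had a site, 37 sites in all (18.1% of their 204 eA peaks). Aqp4, the water channel of astrocyte endfeet, had 8 of 23 eA peaks, the strongest 29.7 kb upstream of its start site (chr18:15591193-15592495) with a −log10 q of 57.5 and an lA peak at percentile 96.4. The H3K4me1 there stood at percentile 65.2 in aNPC, 89.1 in eA and 92.4 in lA. Slc1a2 and Slc1a3, the glutamate transporters, had 4 of 16 and 3 of 20, the strongest of Slc1a2 lying inside the neighbouring gene Cd44. Slc4a4, a bicarbonate cotransporter, had 4 of 21, the strongest in an intron 143 kb from the nearest start site and without H3K4me1 in lA. Gfap, the astrocyte intermediate filament gene, was given none of its 3 eA peaks by start site, while 1 site lay inside its body (chr11:102748992-102749618, −log10 q 13.2) with its nearest start site at Fam187a. Aldh1l1, an enzyme of folate metabolism, had 2 of 12 by start site, and its body held 5.

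Of the gp130 and JAK-STAT genes, 11 of 20 had a site, with 23 sites (18.5% of 124 eA peaks). Bcl3, the cofactor of NF-κB described above, had 5 of its 6 eA peaks, the most sites of a gene in this list. The list's share thus rests in part on this gene. Il6ra, the interleukin 6 receptor, had 4 of 7, Jak1, the kinase, 4 of 18, and Socs3, the feedback inhibitor of the pathway, 3 of 13. The strongest site of Socs3 lay 7.46 kb upstream (chr11:117837635-117838291), with a −log10 q of 41.8 and H3K4me1 at percentile 96.4 in aNPC, 80.6 in eA and 53.5 in lA. Among the genes without one were Stat3 and Il6st, which encodes gp130, with 6 and 7 eA peaks.

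Of the NFI, AP-1 and Runx factors, 13 of 18 had a site, with 39 sites (16.5% of 237 eA peaks). Runx2 had 9 of 20, all inside its gene body, the strongest 146 kb from the nearest start site (chr17:44725171-44725819, −log10 q 27.5) with an lA peak at percentile 97.2 and H3K4me1 at percentiles 83.9, 89.8 and 98.0 in aNPC, eA and lA. Runx1 had 7 of 23, Nfib 6 of 46, Nfia 5 of 55 and Fos 3 of 10. The strongest site of Nfib (chr4:82196380-82196614) had an aNPC H3K4me1 peak at percentile 9.28, and at 73.9 in eA and 92.8 in lA. Atf3 had 1 of 4, which had no H3K4me1 peak in eA or lA, and Nfix, Fosl1, Atf4, Runx3 and Cbfb had none.

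BMP and TGF-beta genes had 51 sites (22.1% of 231 eA peaks). The ligand gene Bmp6 had 7 of 12, and the receptor genes Tgfbr2 and Bmpr2 had 4 of 16 and 4 of 12. The inhibitor genes Smad6 and Smad7 had 7 of 18 and 4 of 25, and the target Id3 had 4 of 10. The strongest site of Tgfbr2 lay in an intron (chr9:116061333-116061921, −log10 q 65.0), and that of Id3 2.46 kb upstream of the start site (chr4:135696646-135697247, −log10 q 32.8). In the Hippo and TEAD list, 12 of 16 genes had a site, with 33 sites (18.5% of 178 eA peaks). Wwtr1, which encodes the coactivator TAZ, had 7 of 18, and the kinase gene Lats2 had 5 of 14. Tead1, a DNA-binding partner of TAZ, had 4 of 40, the strongest 15.3 kb upstream (chr7:119807085-119807956) with a −log10 q of 74.4.

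Of 27 adhesion and matrix genes, 20 had a site, with 36 sites (21.8% of 165 eA peaks, against 16.6% of all eA peaks given a gene). Itga3, an integrin receptor for laminin, had 5 of 7, the strongest 20.5 kb upstream (chr11:94958206-94958966) with a −log10 q of 46.6 and H3K4me1 at percentiles 97.4, 98.5 and 94.9 in aNPC, eA and lA. The collagen genes Col5a1 and Col1a1 had 5 of 15 and 3 of 6. Of the Notch and progenitor genes, 9 of 18 had a site, with 20 sites (14.9% of 134 eA peaks). Hes1, a Notch target, had 5 of 13, Notch1 4 of 21, Notch2 3 of 13 and Prom1 2 of 6. The strongest sites of Notch2 and Prom1 had no H3K4me1 peak in lA.

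Genes of other lineages had sites too. Of all coding genes 25.0% had one, against 41.7% of the neuronal, 21.4% of the oligodendrocyte and 25.0% of the microglia and endothelium list. In the neuronal list, 10 of 24 had one, the microtubule gene Map2 5 of 35, the glutamate receptor gene Grin2b 3 of 10, and Elavl3 and Rbfox3, RNA-binding proteins of neurons, 2 of 2 and 2 of 7. In the oligodendrocyte list, 3 of 14 genes had one, the myelin genes Mbp and Cnp 4 of 9 and 3 of 7 and the lineage factor Nkx2-2 1 of 2. In the list for microglia and endothelium, 4 of 16 had one, namely P2ry12, Kdr, Cdh5 and Flt1. The strongest site at the microglial gene P2ry12 also lies inside Med12l. The up to 4 genes with most sites in each list came to 39, not all of which are named above. The strongest sites of all 39 had H3K4me1 in eA and those of 33 in lA, the ones without being at Slc4a4, Jak1, Nfia, Notch2, Prom1 and Map2. Over all sustained primed sites the shares were 97.0% in eA and 94.7% in lA. Of the 39, 24 lay in introns and 13 between genes.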

How the data were processed

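ChIP-seq of H3K27ac and H3K4me1 in aNPC, eA and lA was used. The authors aligned reads uniquely to mm9 with Bowtie, merged both replicates with SAMtools 0.1.19, and called peaks with MACS2 at default parameters without input. The deposited score is a whole number made from q and was not used. The deposited fold (ratio) is enrichment over local background at the summit, and the authors' −log10 q is taken at the summit. The p column was not used. Fold and q were used only within a list, as depth is unknown. Offsets of the summit are also deposited.

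The members and lists were chosen with earlier results of these data known. Peaks on chromosomes 1 to 19 were compared with 1 bp overlap. Position, genes and start sites came from GENCODE release M1 on mm9 (44025 coding start sites), and the DNA from NCBIM37, the same build. Old symbols were matched through RefSeq synonyms, and Timp1, Sox1, Sox3 and Dcx were among those not found on these chromosomes. Motifs were matched exactly on both strands. Shares carry 95% Wilson and differences 95% Newcombe intervals, and 8 two-sided Fisher's exact tests were adjusted by Benjamini-Hochberg, with p under 1e-300 written as 1e-300. Named are, per list, up to 4 genes with most sites (ties by −log10 q), the 10 sites with the highest −log10 q, and the 5 genes with most sites. Other genes of the lists are given as counts, and Gfap, Aldh1l1 and the genes without a site were singled out after their values were seen. Windows overlapping an annotated UTR or on chromosome 18 were not printed. Overlap code was tested on simulated intervals. Python 3.11.15, SciPy 1.17.1, pandas 2.3.3 and samtools 1.23.1 were used. The 8 libraries with conflicting labels, RNA-seq and knockdowns were not analysed here.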

Additional observations from a re-analysis of the deposited data

How the results depend on the processing

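The sites and the 8 comparisons were recomputed with an overlap of at least 50% of the eA peak, the eA summit inside the other peak, −log10 q of at least 5, equal numbers of peaks per stage, no aNPC H3K27ac within 1 kb, chromosome X added, and eA peaks of 300 to 600 bp, and, chosen after seeing the data, with primed peaks free of aNPC H3K27ac. The number of sites was 5505 among peaks of 300 to 600 bp, where fewer peaks enter, and 9568 to 14496 under the others. None of the 66 recomputed differences turned sign and 64 stayed past the threshold. The 2 lost were the intergenic share against the sustained unprimed sites, at -1.30 points in peaks of 300 to 600 bp and at -1.28 points without aNPC H3K27ac within 1 kb, and the cause was not tested. The differences in H3K4me1 from the sustained unprimed sites ranged from 14.4 to 26.1 points in eA and from 10.7 to 19.4 in lA, and those from the transient primed sites from 2.90 to 6.39 and from 7.08 to 13.4. With promoters taken as the 1 kb before and after any start site, the promoter share differed by 3.71 and -8.40 points. An NF1 or AP-1 match was found at 9.52% of the sites in 200 bases and at 27.2% in 500 bases, since the window is longer, and at 9.60% in windows of 40 to 50% GC, against 8.08%, 22.6% and 9.12% of all eA peaks. The sites fell to 4748 genes within 20 kb, to 5945 with no limit on distance, and to 4626 with −log10 q of at least 5. No paired analysis was possible because the authors merged both replicates before calling peaks, and for the same reason no replicate could be left out. Depth is unknown, so an absent peak does not show that the mark is absent.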
